A study of Linum usitatissimum with 8 samples.

Results

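The late step of flax (Linum usitatissimum) seed development, DAP30 against DAP20, was followed across all genes of the deposited read count table. The members are the 2 DAP30 and 2 DAP20 libraries, chosen by the stage in their titles, which makes 4 of the 8 libraries of the series. Each is RNA from seed of the cultivar Heiya No.14, and the labels name no treatment, genotype or plant beyond the cultivar. The DAP5 and DAP10 libraries, also 2 per stage, enter the fit and show what each gene did before. The table holds 40518 rows, of which 28749 had enough counts to be tested. The labels do not say whether replicates are separate plants, and p-values therefore describe only how these libraries vary, a spread that may be technical.

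As background, an oilseed first grows its tissues, then fills the embryo with oil and storage protein, and finally matures and dries. Filling rests on a small number of very abundant transcripts for storage proteins, oil body proteins and fatty acid enzymes. In the maturing seed many transcripts of growth and filling are lost, while others, such as those for protection against drying, build up. The labels do not spell out the stage names, and the table pairs no ID with a gene name or function, so the genes below are given by ID and no role is assigned to any of them. None of these genes can therefore be used to check the stage labels. The labels give the tissue as seed, a mix of cell types, and fewer cells of a type and less RNA per cell cannot be told apart.

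The DAP30 libraries held 21208377 and 16575103 counts, against 22238190 and 19500351 in the DAP20 libraries. Levels below are CPM, counts scaled to a common library size, with TMM factors that assume most genes do not change. A gene was called changed at a false discovery rate (FDR) below 0.05 in edgeR's quasi-likelihood test, and log2 fold changes are DAP30 over DAP20. The DAP30 replicates correlated at 0.985 and the DAP20 replicates at 0.957, the lowest of the 4 stages (Pearson's r of log2(CPM + 0.5) across 28749 genes, which are not independent). Neither pair looked like a library deposited again: the chi-square per degree of freedom between replicates was 19.9 at DAP30 and 69.5 at DAP20, well above counting noise.

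Called falls were larger than called rises. Of the genes tested, 32.5% changed, 15.1% higher and 17.4% lower at DAP30, which is 4327 and 5011 genes. Which direction was the more frequent depended on the method: on library totals, without TMM, 3411 genes were higher and 5543 lower, and by limma-voom 4427 were higher and 3894 lower. The median fall was 3.89-fold and the median rise 2.06-fold. Of the genes that fell, 2464 fell by 4-fold or more, 1605 by 2- to 4-fold and 942 by less than 2-fold. Of those that rose, 503 rose by 4-fold or more, 1809 by 2- to 4-fold and 2015 by less than 2-fold. The genes that fell held 4.82% and 5.10% of the counts in the DAP30 libraries, against 21.2% and 19.8% in the DAP20 libraries. The genes that rose held 38.5% and 37.7% at DAP30, against 17.8% and 18.2% at DAP20. These shares describe genes chosen on the same libraries. In a test against a 2-fold change 7.76% of genes were called, 528 higher and 1703 lower. Without DAP30 replicate 1 the counts were 2039 higher and 2621 lower, without DAP30 replicate 2 they were 2337 and 2732, and with only these 2 stages in the fit they were 2571 and 3225.

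Before DAP20 the groups had like median levels. Over DAP5, DAP10, DAP20 and DAP30 the genes that rose had median levels of 13.6, 14.0, 19.4 and 40.9 CPM. Genes that fell had medians of 12.2, 12.5, 9.66 and 1.95 CPM at the same stages. Shares of counts take no TMM factor. The genes that rose held 16.2% and 17.1% of counts at DAP5, 15.1% and 15.4% at DAP10 and 17.8% and 18.2% at DAP20. The genes that fell held 21.6% and 21.2%, 20.9% and 21.9%, and 21.2% and 19.8% at these stages. Of the genes that rose, 3682 had their highest mean at DAP30, whereas 398 had stood higher at DAP5 and 247 at DAP10. The genes that fell had their highest mean at DAP20 in 1869 cases, at DAP5 in 1717 and at DAP10 in 1425. None of the genes that rose peaked at DAP20 and none that fell peaked at DAP30, which follows from the calls. No difference in history between the groups is therefore read from the peaks.

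The balance of rises and falls shifted with abundance when abundance was the mean over all 8 libraries, a measure that holds the DAP30 and DAP20 levels themselves. Under 1 CPM, 2.28% of 3515 tested genes rose and 9.05% fell. From 1 to 10 CPM, 8.67% of 10368 rose and 19.6% fell. From 10 to 100 CPM, 22.0% of 13217 rose and 18.4% fell, and from 100 to 1000 CPM, 27.2% of 1576 rose and 13.6% fell. Of the 73 genes at 1000 CPM or more, 15 rose and 13 fell. With classes set by the DAP5 and DAP10 libraries alone, a choice made after seeing the data, falls outnumbered rises in every class: 11.5% against 7.71% under 1 CPM, 15.9% against 12.98% from 1 to 10 CPM, 19.97% against 18.7% from 10 to 100 CPM, 21.5% against 16.3% from 100 to 1000 CPM, and 22.7% against 9.09% in the 44 genes above. Rare genes pass a test with so few counts only when they change strongly, so the sizes of called changes are not comparable across classes.

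**Figure D1:**
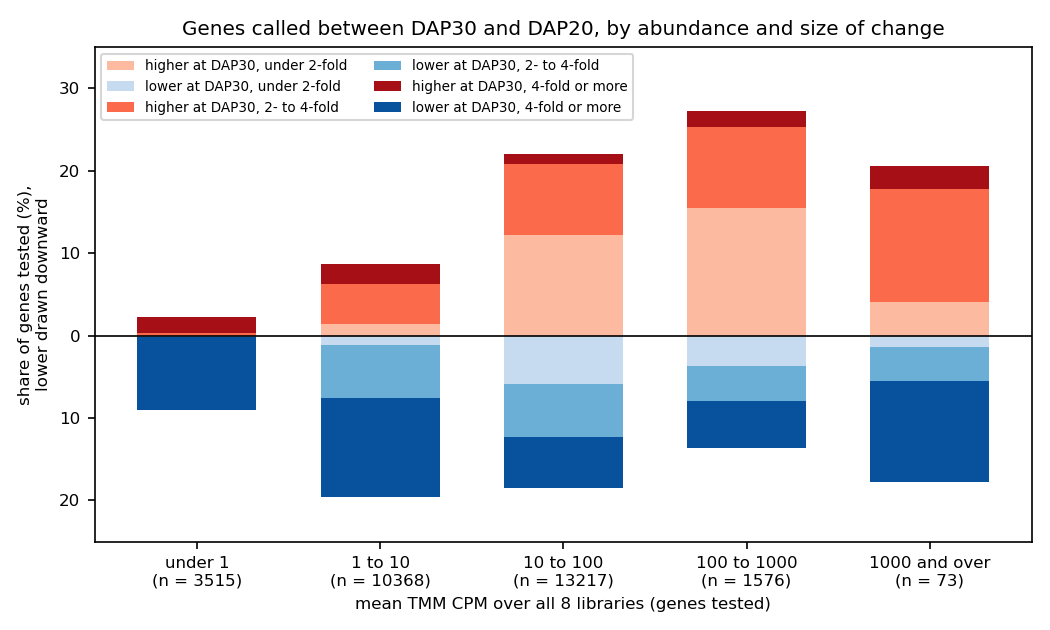
Share of the genes tested (%, vertical axis) that were called higher (red, upward) or lower (blue, downward) at DAP30 than at DAP20, in 5 classes of mean TMM CPM over all 8 libraries (horizontal axis), with shades for the size of the fitted change. Falls outnumber rises under 10 CPM, rises outnumber falls from 10 to 1000 CPM in classes that include the DAP30 levels, and most rises from 10 to 1000 CPM are pale, that is below 2-fold.

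Rises among abundant genes were moderate in size. At a mean of 100 CPM or more over all libraries, 444 of 1649 tested genes rose and 228 fell, and the median log2 fold change of all 1649 was 0.28 beside -0.04 over all genes tested. The limit uses the DAP30 libraries, so genes high at DAP30 pass it more easily, and 836 of the 1649 had their highest mean there. At a mean of 100 CPM or more over the DAP5 and DAP10 libraries alone, 209 of 1305 tested genes rose and 281 fell, so the excess of rises was not seen, and the median over all 1305 was 0.02 on the log2 scale. The median rise was then 1.78-fold and the median fall 3.71-fold. Of the 444 rises, 246 were below 2-fold, 165 were 2- to 4-fold and 33 were 4-fold or more, with a median of 1.90-fold. Of the 228 falls, 60 were below 2-fold, 70 were 2- to 4-fold and 98 were 4-fold or more, with a median of 3.01-fold. The share of calls that were rises was 66.1%, and 53.0% with library totals in place of TMM, where 314 genes rose and 279 fell. With only these 2 stages in the fit 273 rose and 199 fell. Without DAP30 replicate 1 the numbers were 189 and 98, and without DAP30 replicate 2 they were 205 and 117.

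The abundant genes that rose held 23.2% and 23.4% of the counts in the DAP30 libraries, against 10.1% and 10.5% in the DAP20 libraries, which were also used to choose them. Over the 4 stages, DAP5 to DAP30, their median level was 72.2, 96.9, 152 and 297 CPM. As shares of counts, which take no TMM factor, they held 6.61% and 6.99% at DAP5 and 7.65% and 7.84% at DAP10. Both DAP30 libraries lay above both DAP5 libraries in 396 of the 444, beside 69.7% of all 1649 abundant genes, and above both DAP10 libraries in 388, beside 63.4%. The 444 were chosen for high DAP30 levels, so nothing is read from these counts. Of the 444, 159 had a DAP5 mean of 100 CPM or more, and 49 had a DAP5 mean below 10 CPM. Early expression was no trait of the genes that rose: the median DAP5 level of all 1649 was higher, at 97.0 CPM. The limit of 100 CPM also includes the DAP5 libraries.

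The 8 genes with the largest gain in CPM were all high at DAP20 already and rose by 2.06 to 5.97-fold. Lus10016273.g.BGIv1.0 had 22739 and 27523 CPM in the DAP30 libraries, against 6900 and 7541 in the DAP20 libraries, a log2 fold change of 1.80 with an SE of 0.46 (edgeR FDR = 0.0219). Lus10011972.g.BGIv1.0 had 22429 and 27512 CPM at DAP30, against 7743 and 10003 at DAP20, a log2 fold change of 1.49 with an SE of 0.34 (edgeR FDR = 0.0142). The levels of these genes were alike in CPM, but per kilobase of the deposited gene length Lus10016273.g.BGIv1.0 stood at 31335 CPM per kb at DAP30 and Lus10011972.g.BGIv1.0 at 7128. Lus10014280.g.BGIv1.0 had 12200 and 14827 CPM at DAP30, against 5607 and 5430 at DAP20, and it had been below 2 CPM in every DAP5 and DAP10 library. Its log2 fold change was 1.29 ± 0.35 (SE, edgeR FDR = 0.027).

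Lus10012018.g.BGIv1.0 made the largest relative gain of the 8, with 8161 and 9871 CPM at DAP30 against 1784 and 1234 at DAP20 (log2 fold change 2.58 ± 0.50, SE, edgeR FDR = 0.00865). Lus10015122.g.BGIv1.0 followed with 7015 and 7059 CPM at DAP30 against 1328 and 1411 at DAP20 (log2 fold change 2.36 ± 0.48, SE, edgeR FDR = 0.01). In both genes the 2 stages lay far apart beside the gap between replicates. Lus10016266.g.BGIv1.0 had 4971 and 6010 CPM at DAP30, against 1485 and 1699 at DAP20, with the lowest FDR of the 8 at 0.00322 (edgeR). Lus10005474.g.BGIv1.0 had 6644 and 7000 CPM at DAP30, against 3025 and 2252 at DAP20 (edgeR FDR = 0.0118). Lus10033958.g.BGIv1.0 had the highest early levels of the 8, with 397 and 439 CPM at DAP5 and 1141 and 1194 at DAP10. It had 4973 and 5528 CPM at DAP30, against 2355 and 2735 at DAP20 (edgeR FDR = 0.014).

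**Figure D2:**
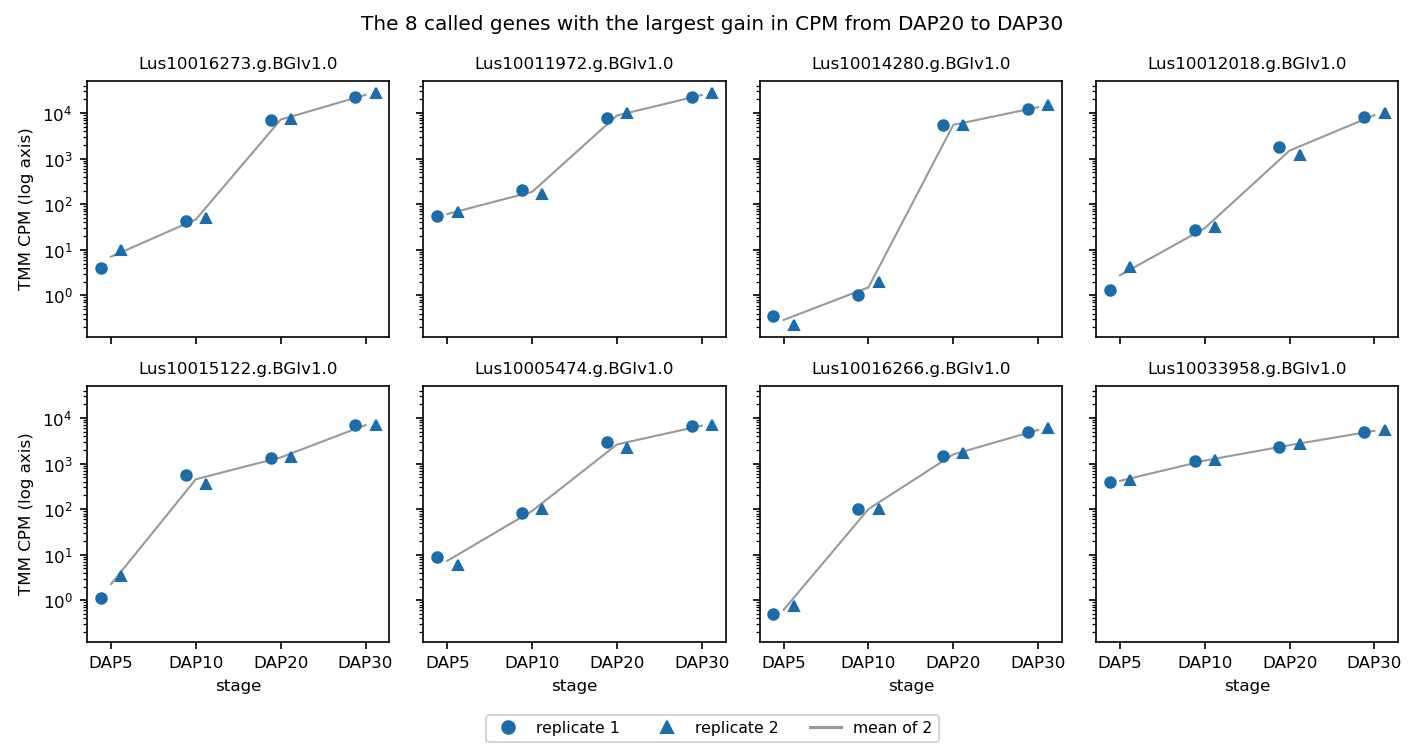
TMM CPM (log axis) in each library at the 4 stages for the 8 called genes with the largest gain in mean CPM between DAP20 and DAP30; circles and triangles are replicates 1 and 2 and the line joins stage means. At each gene both DAP30 points lie above both DAP20 points, and Lus10033958.g.BGIv1.0 is the gene that starts highest, at 397 and 439 CPM at DAP5.

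These calls were near the limit of 2 libraries a stage. Without DAP30 replicate 2, 5 of the 8 were no longer called, with FDRs of 0.0564 for Lus10005474.g.BGIv1.0, 0.0713 for Lus10011972.g.BGIv1.0, 0.0742 for Lus10033958.g.BGIv1.0, 0.0921 for Lus10016273.g.BGIv1.0 and 0.120 for Lus10014280.g.BGIv1.0. Without DAP30 replicate 1 the same genes apart from Lus10011972.g.BGIv1.0 had FDRs of 0.0522 to 0.0767. Lus10016273.g.BGIv1.0 was also not called without DAP20 replicate 1 (FDR = 0.055), and Lus10033958.g.BGIv1.0 with only these 2 stages in the fit (FDR = 0.0525). Lus10012018.g.BGIv1.0, Lus10015122.g.BGIv1.0 and Lus10016266.g.BGIv1.0 were called in each of the 13 alternatives run on named genes.

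By fold, the largest rises were at lower levels. Among genes with a mean of 10 CPM or more over DAP30 and DAP20, the leading 4 rose by 13.6 to 16.6-fold. Lus10018077.g.BGIv1.0 had 566 and 395 CPM at DAP30, against 53.7 and 9.90 at DAP20 (log2 fold change 3.91 ± 0.71, SE, edgeR FDR = 0.00673). Lus10009104.g.BGIv1.0 had 81.2 and 71.2 CPM at DAP30, against 7.99 and 1.43 at DAP20 (log2 fold change 4.00 ± 0.65, SE, edgeR FDR = 0.00453). Both genes were below 1 CPM in each DAP5 and DAP10 library. Lus10018010.g.BGIv1.0 had 154 and 81.0 CPM at DAP30, against 8.74 and 8.60 at DAP20 (log2 fold change 3.76 ± 0.45, SE, edgeR FDR = 0.00153), and unlike the others it had stood higher before, at 31.9 and 29.9 CPM at DAP5. Lus10028448.g.BGIv1.0 had 121 and 121 CPM at DAP30, against 13.5 and 0.872 at DAP20.

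In 3 of these 4 genes DAP20 replicate 1 held the higher level, by 15.5-fold for Lus10028448.g.BGIv1.0, 5.58-fold for Lus10009104.g.BGIv1.0 and 5.42-fold for Lus10018077.g.BGIv1.0. The log2 fold changes without DAP20 replicate 1 were 7.11, 5.73 and 5.599 for these genes, and without DAP20 replicate 2 they were 3.17, 3.26 and 3.17. The rise was thus called with either DAP20 library alone, but its size depended on which was kept. Lus10028448.g.BGIv1.0 was not called without DAP30 replicate 1 (FDR = 0.0685) or without DAP30 replicate 2 (FDR = 0.0659).

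Falls among abundant genes ran deep. Of the 228 abundant genes that fell, 73 were below 10 CPM at DAP30, 41 of them below 1 CPM, while another 73 still stood at 100 CPM or more. Together the 228 held 2.19% and 2.60% of the counts in the DAP30 libraries, against 12.5% and 11.9% in the DAP20 libraries, which were also used to choose them. The 20 most abundant genes of DAP30 and the 20 of DAP20 shared 12 members.

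Lus10004895.g.BGIv1.0, the most abundant gene of DAP20 and without a count at DAP5 and DAP10, had 4794 and 7638 CPM in the DAP30 libraries, against 44597 and 55659 in the DAP20 libraries, a log2 fold change of -3.01 with an SE of 0.46 (edgeR FDR = 0.00746). Lus10003554.g.BGIv1.0 had 214 and 267 CPM at DAP30, against 6472 and 1354 at DAP20 (log2 fold change -4.02 ± 0.80, SE, edgeR FDR = 0.00934). Lus10022929.g.BGIv1.0 had 335 and 494 CPM at DAP30, against 4446 and 1973 at DAP20 (log2 fold change -2.95 ± 0.58, SE, edgeR FDR = 0.00905). Lus10024889.g.BGIv1.0 had 577 and 821 CPM at DAP30, against 5285 and 2146 at DAP20 (log2 fold change -2.41 ± 0.60, SE, edgeR FDR = 0.0208). The last 3 genes shared a course: under 3 CPM in the DAP5 libraries, 331 to 2997 CPM in the DAP10 libraries with replicate 1 higher, and replicate 1 higher again at DAP20, by 2.25 to 4.78-fold.

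Lus10004471.g.BGIv1.0 had 649 and 1265 CPM at DAP30, against 4992 and 3671 at DAP20 (log2 fold change -2.18 ± 0.45, SE, edgeR FDR = 0.0109). Lus10006302.g.BGIv1.0 had 1062 and 1348 CPM at DAP30, against 3671 and 2145 at DAP20 (log2 fold change -1.27 ± 0.32, SE, edgeR FDR = 0.0212). Both had been under 5 CPM in every DAP5 and DAP10 library, so their high levels were seen at DAP20 and, reduced, at DAP30. Each of these 6 falls failed the threshold without DAP30 replicate 1 (FDR of 0.0654 for Lus10004895.g.BGIv1.0, 0.0767 for Lus10003554.g.BGIv1.0, 0.0793 for Lus10004471.g.BGIv1.0, 0.0746 for Lus10022929.g.BGIv1.0, 0.131 for Lus10024889.g.BGIv1.0 and 0.131 for Lus10006302.g.BGIv1.0). Without DAP30 replicate 2 the FDR was 0.0631 for Lus10003554.g.BGIv1.0, 0.0841 for Lus10024889.g.BGIv1.0 and 0.0702 for Lus10006302.g.BGIv1.0. Without DAP20 replicate 1 it was 0.0604 for Lus10024889.g.BGIv1.0, with a log2 fold change of -1.62, and 0.0581 for Lus10006302.g.BGIv1.0, with -0.83.

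Some genes were lost outright: 36 stood at 10 CPM or more in each DAP20 library, here on library totals, and had no count in either DAP30 library, while no gene did the opposite. No count over both DAP30 libraries allows a level of up to 0.102 CPM (3 counts, counting error only). The 36 genes held 0.649% and 1.57% of the counts in the DAP20 libraries. Their DAP20 means ran from 13.7 to 6232 CPM with a median of 33.6, and 6 were at 100 CPM or more. They fell by at least 135 to at least 58785-fold, with a median bound of 331. All 36 are called lower, which follows from how they were chosen. One of them is a gene model added by the authors. The number was 37 with TMM CPM, 80 without DAP20 replicate 2, 52 without DAP20 replicate 1, 57 without DAP30 replicate 1 and 53 without DAP30 replicate 2. When a DAP30 mean below 0.5 CPM was enough it was 138, against 0 for the opposite.

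The 36 lost genes came from different histories in the DAP5 and DAP10 libraries, which were not used to choose them. In 17 of them the means were at 10 CPM or more at both early stages, and in 12 an early mean lay above that of DAP20. In 6 the means were below 2 CPM at both early stages, so that nearly all expression was seen at DAP20. Lus10040382.g.BGIv1.0, named after its values were seen, had no count in any DAP5, DAP10 or DAP30 library and 16.04 and 43.9 CPM in the DAP20 libraries. At the other extreme Lus10003755.g.BGIv1.0, also named after its values were seen, had 1274 and 1439 CPM at DAP10, 12.2 and 16.2 at DAP20 and none at DAP30. The median length of the 36 was 1382 bases, against 2011 over all genes tested.

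The 2 most abundant lost genes kept a nearly constant ratio in the libraries that held them. Lus10007186.g.BGIv1.0 had no count at DAP30, against 3124 and 9340 CPM at DAP20, a fall of 58785-fold or more (edgeR FDR = 0.00364), with a bound of 91500 without DAP20 replicate 1 and 30607 without replicate 2. Lus10000298.g.BGIv1.0 had no count at DAP30, against 2641 and 7244 CPM at DAP20, a fall of 46739-fold or more (edgeR FDR = 0.00341), with a bound of 70965 without DAP20 replicate 1 and 25874 without replicate 2. The ratio of Lus10007186.g.BGIv1.0 to Lus10000298.g.BGIv1.0 stayed between 1.13 and 1.29 in all 6 libraries of DAP5, DAP10 and DAP20, although the DAP10 replicates, for one, stood at 488 and 8484 CPM for Lus10007186.g.BGIv1.0. The IDs that follow them in number were lost too, at less constant ratios: Lus10000299.g.BGIv1.0 had no count at DAP30, against 387 and 909 CPM at DAP20, and Lus10007187.g.BGIv1.0 none, against 92.3 and 327. Across the 6 libraries Lus10000298.g.BGIv1.0 stood 2.34 to 7.97 times as high as Lus10000299.g.BGIv1.0, and Lus10007186.g.BGIv1.0 17.4 to 36.2 times as high as Lus10007187.g.BGIv1.0. In all 4 genes replicate 2 was higher at DAP5, DAP10 and DAP20. Whether these models share reads or sequence was not tested. By limma-voom the FDR was 0.0526 for Lus10007186.g.BGIv1.0 and 0.114 for Lus10007187.g.BGIv1.0.

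In the other 4 of the 8 most abundant lost genes the DAP5 and DAP10 replicates lay closer together. Lus10027978.g.BGIv1.0 had no count at DAP30, against 218 and 284 CPM at DAP20, at least 2436-fold lower (edgeR FDR = 7.16e-05), after 13.1 and 15.8 CPM at DAP5 and 106 and 119 at DAP10. Lus10024331.g.BGIv1.0 had no count at DAP30, against 248 and 63.9 CPM at DAP20 (edgeR FDR = 0.00108), after 376 and 487 at DAP5 and 508 and 514 at DAP10. Lus10003738.g.BGIv1.0 had none at DAP30, against 120 and 17.4 CPM at DAP20, and Lus10015644.g.BGIv1.0 none, against 108 and 23.4. In these last 3 genes DAP20 replicate 1 was higher, by 3.88, 6.88 and 4.63-fold, and the least fold of the fall was 626 without replicate 1 and 2427 without replicate 2 for Lus10024331.g.BGIv1.0, 170 and 1172 for Lus10003738.g.BGIv1.0, and 229 and 1060 for Lus10015644.g.BGIv1.0.

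**Figure D3:**
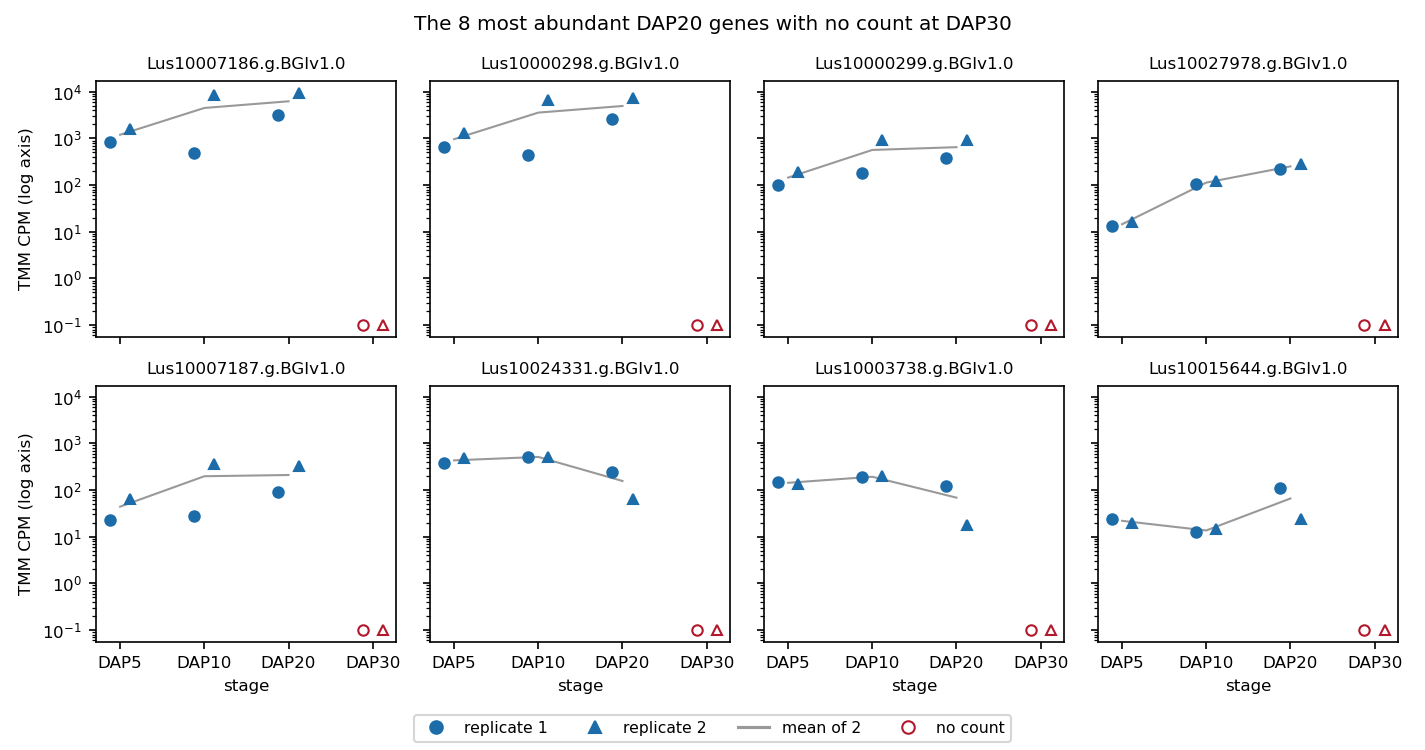
TMM CPM (log axis) in each library at the 4 stages for the 8 most abundant DAP20 genes with no count at DAP30; filled circles and triangles are replicates 1 and 2, the line joins stage means, and open symbols at the bottom mark libraries with no count, not a measured level. Lus10007186.g.BGIv1.0, Lus10000298.g.BGIv1.0, Lus10000299.g.BGIv1.0 and Lus10007187.g.BGIv1.0 have replicate 2 above replicate 1 at the 3 earlier stages, while Lus10024331.g.BGIv1.0, Lus10003738.g.BGIv1.0 and Lus10015644.g.BGIv1.0 have replicate 1 above replicate 2 at DAP20.

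The DAP20 libraries disagreed on more genes than those of any other stage. A 4-fold or larger difference between the replicates (CPM + 0.5, the higher library at 10 CPM or more) was found for 369 genes at DAP20, which is 2.58% of the 14320 genes at that level. The same difference was found for 114 genes at DAP5, 28 at DAP10 and 24 at DAP30. At 8-fold the numbers were 149 at DAP20, 53 at DAP5, 15 at DAP10 and 9 at DAP30. At DAP20 replicate 1 was higher in 267 of the 369 genes and replicate 2 in 102.

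The genes higher in DAP20 replicate 1 were mostly lower at DAP30 than at DAP10. Their median levels were 13.2 CPM at DAP5, 18.6 CPM at DAP10, 28.1 in DAP20 replicate 1, 2.93 in DAP20 replicate 2 and 0.714 at DAP30. In 238 of the 267 the DAP30 mean lay below the DAP10 mean, a comparison that leaves the DAP20 libraries out, beside 37.5% of all 14320 genes at 10 CPM in a DAP20 library. The genes higher in DAP20 replicate 2 looked different, with medians of 3.62 CPM at DAP5, 6.61 at DAP10, 6.89 in DAP20 replicate 1, 47.2 in DAP20 replicate 2 and 5.61 at DAP30. Their DAP30 mean lay below the DAP10 mean in 50 genes and above it in 50.

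**Figure D4:**
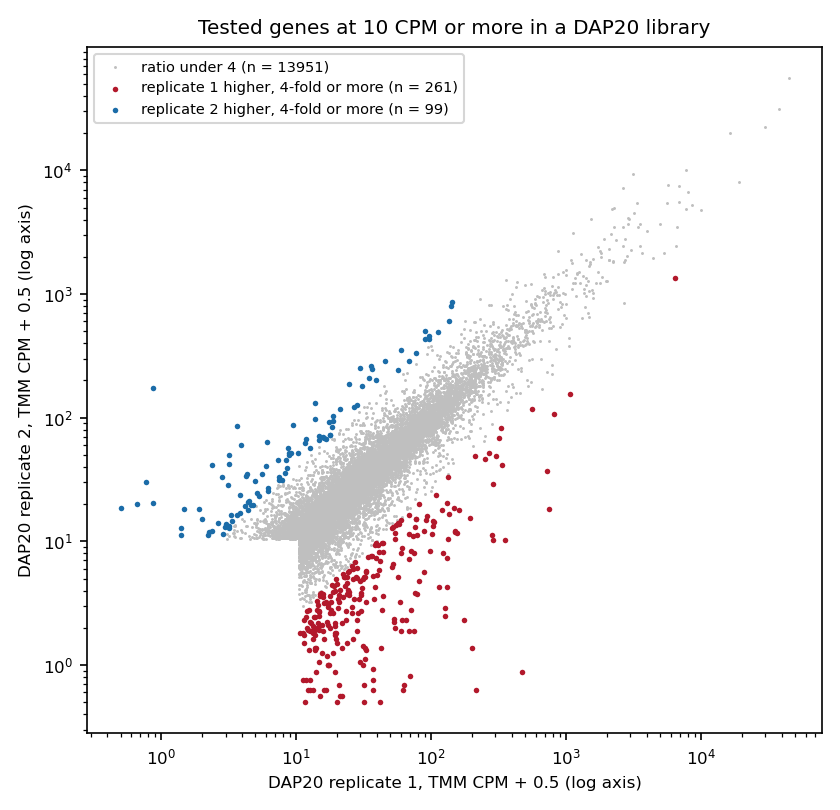
TMM CPM + 0.5 in DAP20 replicate 1 (horizontal, log axis) and replicate 2 (vertical, log axis) for each tested gene at 10 CPM or more in a DAP20 library. Coloured points differ 4-fold or more, 261 tested genes with replicate 1 higher (red) and 99 with replicate 2 higher (blue), and the red points reach farther from the diagonal.

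Most of the disagreeing genes were called lower. Of the 360 disagreeing genes that were tested, 216 were called lower and 6 higher at DAP30, beside 17.4% and 15.1% of all genes tested. The contrast holds the same DAP20 libraries. The genes were also picked for 10 CPM or more in a DAP20 library, a choice that favours falls, so nothing is read from this difference. Of these 222 calls, 212 were also called in the same direction without DAP20 replicate 2, 167 without DAP20 replicate 1 and 51 by limma-voom. Over all genes, 7624 of the 9338 calls were made in the same direction without DAP20 replicate 2, 7045 without DAP20 replicate 1, 4451 without DAP30 replicate 1, 4873 without DAP30 replicate 2 and 7886 by limma-voom, and none turned round.

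The strongest disagreements were nearly on and off. Lus10007732.g.BGIv1.0 had 0 and 0.0797 CPM at DAP30, against 214 CPM (3988 counts) in DAP20 replicate 1 and 0.125 CPM (2 counts) in replicate 2, and it had stood between 411 and 901 CPM in every DAP5 and DAP10 library. Lus10007532.g.BGIv1.0 had no count at DAP30, against 471 CPM (8783 counts) in DAP20 replicate 1 and 0.374 CPM (6 counts) in replicate 2. Lus10012610.g.BGIv1.0 had 0 and 0.239 CPM at DAP30, against 201 and 0.872 at DAP20. In these genes DAP20 replicate 2 was within 1 CPM of DAP30, and replicate 1 was not.

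A further pair of genes repeated this course with high early levels. Lus10040310.g.BGIv1.0 had no count at DAP30, against 61.2 and 0.125 CPM at DAP20, after 139 to 258 CPM in the DAP5 and DAP10 libraries. Lus10003339.g.BGIv1.0 had none at DAP30, against 62.6 and 0.187 CPM at DAP20, after 67.2 to 94.9 CPM in the earlier libraries. All 5 genes were called lower, with edgeR FDRs of 0.0306 for Lus10007732.g.BGIv1.0, 0.0452 for Lus10007532.g.BGIv1.0, 0.0252 for Lus10012610.g.BGIv1.0, 0.0455 for Lus10040310.g.BGIv1.0 and 0.0442 for Lus10003339.g.BGIv1.0. Without DAP20 replicate 1 the FDRs were 0.416, 0.327, 0.106, 0.108 and 0.0461 in the same order, so only the call of Lus10003339.g.BGIv1.0 held. None of the 5 was called by limma-voom or without either DAP30 library.

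The added model Linumusitatissimum_newGene_2300 and Lus10041681.g.BGIv1.0 had nearly all their counts in a single library. Linumusitatissimum_newGene_2300 had 1252 counts in DAP20 replicate 1 and 1 count in each of DAP20 replicate 2 and the DAP30 libraries. Lus10041681.g.BGIv1.0 had no count at DAP30, against 6 counts in DAP20 replicate 1 and 2092 in replicate 2. Both failed the filter on low counts, which asks for counts in 2 libraries, and were not tested. Lus10028810.g.BGIv1.0 had 0.593 and 110 CPM at DAP30, against 0.376 and 174 at DAP20, so the stages overlapped while the replicates lay 463-fold apart at DAP20 (edgeR FDR = 0.887).

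By amount, the 4 widest gaps lay among the most abundant genes and were modest as ratios. One was that of Lus10004895.g.BGIv1.0, described above and called lower, with 44597 CPM in DAP20 replicate 1 and 55659 in replicate 2. In the other 3 genes replicate 1 was higher, and none of them was called. Lus10033893.g.BGIv1.0 had 1050 and 2171 CPM at DAP30, against 19171 and 8060 at DAP20, a log2 fold change of -3.08 ± 1.06 that missed the threshold (SE, edgeR FDR = 0.0605). Lus10040396.g.BGIv1.0 had 6593 and 4509 CPM at DAP30, against 37988 and 31196 at DAP20, a log2 fold change of -2.64 with an SE of 0.97 (edgeR FDR = 0.0734). Lus10011816.g.BGIv1.0 had 11551 and 11325 CPM at DAP30, against 30041 and 22622 at DAP20, a log2 fold change of -1.20 with an SE of 0.66 (edgeR FDR = 0.202). In each of the 3 both DAP30 libraries were below both DAP20 libraries, as in 33.0% of all genes tested. Without DAP5 replicate 1 all 3 were called, with FDRs of 0.00971, 0.00374 and 0.0367, and without DAP5 replicate 2 likewise, with 0.00967, 0.00368 and 0.0360. In the DAP5 replicates these genes had 0.762 and 10.9, 2.48 and 31.5, and 1.39 and 7.06 CPM. DESeq2 called Lus10033893.g.BGIv1.0 and Lus10040396.g.BGIv1.0 lower as well (FDRs of 0.0146 and 0.0138), as did limma-voom (0.0150 and 0.0362) and the fit with only these 2 stages (0.0241 and 0.0140). Lus10033893.g.BGIv1.0 was also called without DAP20 replicate 2 (0.0461).

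Across many genes DAP20 replicate 2 lay farther along the way to DAP30. The place of each DAP20 library was measured on the log2 scale between the DAP10 mean, set to 0, and the DAP30 mean, set to 1, in 4828 genes that differ 4-fold or more between DAP10 and DAP30 and were chosen without the DAP20 libraries. The median place was 0.735 for replicate 2 and 0.646 for replicate 1. In 2022 genes higher at DAP30 than at DAP10 the medians were 0.689 for replicate 2 and 0.619 for replicate 1, and in 2806 genes lower at DAP30 they were 0.775 and 0.679. The quartiles overlapped, at 0.532 and 0.937 for replicate 2 and 0.452 and 0.862 for replicate 1. Replicate 2 was farther along in 63.5% of the 4828 genes and replicate 1 in 35.3%. Of the 267 disagreeing genes higher in DAP20 replicate 1, replicate 2 was nearer the DAP30 mean in 245 and replicate 1 in 22. Of the 102 higher in replicate 2 it was the reverse, with replicate 1 nearer in 78 and replicate 2 in 24. Those 2 sets were chosen on the DAP20 libraries. The genes share the same libraries and are not independent, so no test was made, and why the libraries differ was not tested.

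**Figure D5:**
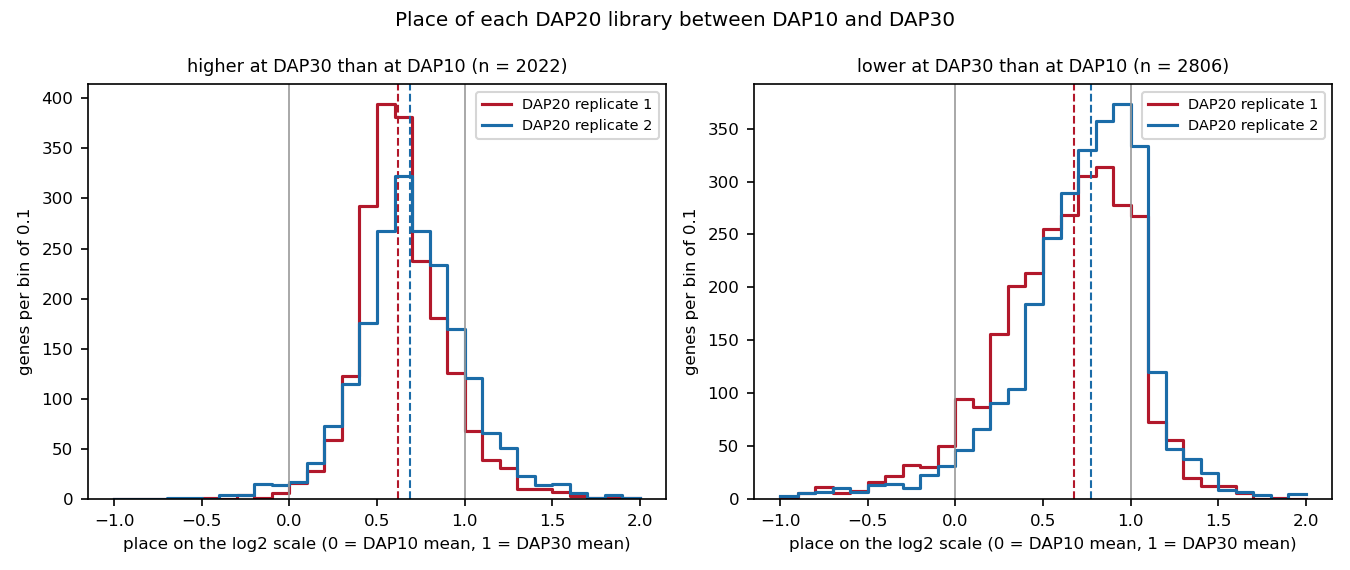
Number of genes per bin of 0.1 (vertical axis) by the place of DAP20 replicate 1 (red) and replicate 2 (blue) between the DAP10 mean at 0 and the DAP30 mean at 1 on the log2(CPM + 0.5) scale (horizontal axis, drawn from -1 to 2), for genes higher (left, n = 2022) and lower (right, n = 2806) at DAP30 than at DAP10; dashed lines are medians. The blue medians lie to the right of the red ones, at 0.689 against 0.619 on the left and 0.775 against 0.679 on the right. The curves overlap widely. On the left the blue curve also holds more genes in some low bins, with 36 against 28 in the bin from 0.1 and 73 against 59 in the bin from 0.2.

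Some abundant genes had a small fitted change, for which they were picked, so moderate changes are not excluded. Lus10023174.g.BGIv1.0 had 1764 and 1644 CPM at DAP30, against 1737 and 1508 at DAP20, a log2 fold change of 0.07 with an SE of 0.22 (edgeR FDR = 0.842). Lus10017976.g.BGIv1.0 had 3096 and 4493 CPM at DAP30, against 3557 and 3677 at DAP20, after 144 CPM or less in each earlier library. Its log2 fold change was 0.07 with an SE of 0.28 (edgeR FDR = 0.889). Lus10014456.g.BGIv1.0 had 1333 and 2323 CPM at DAP30, against 1814 and 2142 at DAP20, a log2 fold change of -0.11 with an SE of 0.30 (edgeR FDR = 0.809). For these last genes the DAP30 libraries lay on both sides of the DAP20 libraries.

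The gene models added by the authors were called less often, with 110 of 1295 higher and 88 lower, 15.3% in all against 33.3% of annotated genes, a difference that was not tested. The 3 most abundant of them stayed high and were not called by edgeR with all libraries. Linumusitatissimum_newGene_4831 had 9138 and 9839 CPM at DAP30, against 8589 and 5219 at DAP20 (edgeR FDR = 0.31). Linumusitatissimum_newGene_3715 had 7439 and 9518 CPM at DAP30, against 6619 and 3514 at DAP20 (edgeR FDR = 0.148, but 0.0391 by DESeq2 and 0.0209 without DAP20 replicate 1, where the log2 fold change was 1.27 in place of 0.74). Linumusitatissimum_newGene_3103 had 4404 and 4943 CPM at DAP30, against 3974 and 3204 at DAP20 (edgeR FDR = 0.271). In each the DAP30 libraries lay above both DAP20 libraries, as in 31.2% of all genes tested, and DAP20 replicate 1 lay above replicate 2.

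Gene length differed little between the directions. The median deposited length was 1997 bases for genes that rose, 2084 for genes that fell and 1993 for genes not called. Calls were fewest among the 589 genes of up to 500 bases, where 8.998% rose and 11.4% fell, and their median level over all libraries was 0.977 CPM against 12.4 CPM for genes over 2000 and up to 4000 bases, of which 15.5% rose and 18.7% fell. How much of this follows from the lower counts of short genes was not tested.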

How the data were processed

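TRIzol was used to isolate the RNA and NEBNext Ultra reagents to build the libraries, per the labels' protocols. The authors deposited raw counts of reads for each gene in each library, together with a gene length. How length was defined, and which aligner, counter, genome build and strand setting were used, are not given in the sources here. Columns were matched to samples by the library code in the labels, and no row lacked a gene ID. Reads shared by near-identical copies or by overlapping genes could not be recognised.

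The counts were analysed in R 4.3.3 with edgeR 4.0.16. Low genes were removed by filterByExpr (counts of 10, total of 15), libraries were scaled by TMM, and all 8 entered a single quasi-likelihood model of stage. The Benjamini-Hochberg adjustment ran over all genes tested. Standard errors were taken from the log2 fold change and its F statistic (size over the root of F). Folds against no count are bounds set by 3 counts summed over both DAP30 libraries. Alternatives used DESeq2 1.42.0, limma 3.58.1 (voom), other scaling and filters, a test against a 2-fold change, a replicate term and each library left out. The scripts were also run on simulated counts with known changes. These counts were drawn from the stage means and spread of these data, with DAP30 set to the DAP20 mean apart from the known changes. Of 50 changes at each size, 1 was recovered at 1.5-fold, 7 at 2-fold, 40 at 4-fold and 50 at 8-fold. Only 101 genes were called there, 3 of them unchanged, so these rates may not hold for the data.

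Named genes followed a rule. The 8 most abundant lost genes came first. Next were the 6 largest falls in CPM among genes that still had counts at DAP30. To these came the 8 largest rises in CPM and the 4 largest rises in fold. These falls and rises were called, with stages not overlapping. Also named were the 8 largest DAP20 replicate ratios at 50 CPM or more and the 4 largest DAP20 replicate gaps in CPM. The last were the 3 least changed of the 100 most abundant genes and the 3 most abundant added models. The genes, groups and lists were chosen with earlier results of these data known. Gene lists by words in names were planned but not used, since the table holds no names. Bounds cover counting error only.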

Additional observations from a re-analysis of the deposited data

How the results depend on the processing

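As reported, 9338 genes were called, 4327 higher and 5011 lower. In a test against a 2-fold change 2231 were called (528 and 1703), fewer by construction, and with only the DAP20 and DAP30 libraries in the fit 5796 (2571 and 3225), where the cause was not tested. Of the abundant genes 444 rose and 228 fell as reported, 1051 and 608 where the limit was 50 CPM and 155 and 91 where it was 200 CPM, since other genes enter, 668 rose with the mean over DAP20 and DAP30 alone, 209 rose and 281 fell with the mean over DAP5 and DAP10 alone (added after seeing the data), and 273 rose with only these libraries in the fit. Lost genes numbered 62 at 5 CPM, 6 at 50 CPM and 138 when a DAP30 mean below 0.5 CPM was enough, against 36 as reported. DAP20 disagreement covered 1412 genes at 2-fold, 149 at 8-fold and 138 at 50 CPM, in place of 369. With every library kept, 42 of 61 alternative values stayed within 1.5 times the reported count or, for places, within the SD of the 2 places; the direction with more calls still turned round by limma-voom (4427 higher, 3894 lower). Leaving out single libraries, where the lone library of that stage is taken to vary as the other stages do, calls ran from 4660 to 9390 (2039 to 4147 higher, 2621 to 5243 lower), abundant rises from 189 to 438, abundant falls from 98 to 241, lost genes from 52 to 80 and genes gained from no count stayed at 0. For the 41 named genes tested, 451 of 529 alternative values kept their side of the threshold and no called gene reversed. Replicate numbers are shared between stages, but the labels do not say that they pair libraries, and deviations of same-numbered libraries correlated at 0.147 for DAP20 and DAP30 and between -0.027 and 0.118 for the other pairs of stages. With the replicate block 8653 genes were called, 4001 higher and 4652 lower, and Lus10007732.g.BGIv1.0, Lus10040310.g.BGIv1.0 and Lus10003339.g.BGIv1.0 lost their calls (FDRs of 0.0518, 0.069 and 0.0695). Depth limits losses: at DAP30 a gene below 0.102 CPM cannot be told from absence.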

Other observations

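After Lus10028810.g.BGIv1.0 was seen to differ between replicates at DAP20, genes that differ 4-fold or more (CPM + 0.5) in the same direction at all 4 stages were looked for. There were 7 with replicate 2 higher and 0 with replicate 1 higher. Lus10021573.g.BGIv1.0 had no count in replicate 1 of any stage, whereas replicate 2 of DAP5, DAP10, DAP20 and DAP30 stood at 10.9, 10.2, 8.85 and 9.49 CPM. Lus10016844.g.BGIv1.0 stood at 8.72, 7.70, 9.53 and 5.50 CPM in replicate 2 of the same stages and at or below 0.182 CPM in every replicate 1 library. Lus10028810.g.BGIv1.0 stood at 11.8, 74.0, 174 and 110 CPM in replicate 2 and at or below 0.593 CPM in every replicate 1 library. The other 4 were Lus10001597.g.BGIv1.0, Linumusitatissimum_newGene_1412, Linumusitatissimum_newGene_2344 and Linumusitatissimum_newGene_3316. For such genes the difference between replicate numbers exceeded that between DAP30 and DAP20, and its source was not tested.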
